A study of Homo sapiens with 8 samples.

Results

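The genes described here are 10 enzymes that make, lengthen, desaturate and activate fatty acids: FASN, ACACA, ACLY, SCD, FADS1, FADS2, ELOVL5, ELOVL6, ACSL1 and ACSL3. They were chosen by name for their place in the pathway, and all 10 were found among the 16829 genes of the deposited tables. RNA was sequenced from 8 libraries of RKO and SW480, human colorectal carcinoma cell lines, with 2 libraries in each of 4 groups. The groups were RKO with CYP1B1 overexpression, RKO control, SW480 with a hairpin against CYP1B1 (shCYP1B1) and SW480 with a non-targeting hairpin (shNT). CYP1B1 is a cytochrome P450 enzyme that oxidises steroids, arachidonic acid and foreign compounds. Every group received lentivirus and grew in DMEM with 10% serum. The SW480 knockdown rests on 1 hairpin. The labels do not say whether the 2 libraries of a group came from separate cultures, so p-values cover no more than the spread between the libraries at hand, which may be technical.

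As background, cells build fatty acids from citrate. ACLY, ATP citrate lyase, splits citrate to acetyl-CoA in the cytosol, ACACA, acetyl-CoA carboxylase alpha, makes malonyl-CoA in the committed step, and FASN, fatty acid synthase, joins these units into palmitate. ELOVL6 lengthens palmitate to stearate, and SCD, stearoyl-CoA desaturase, places the first double bond to give the monounsaturated oleate and palmitoleate. Polyunsaturated fatty acids follow another route, since human cells must take up the parent linoleic and alpha-linolenic acids: FADS2 performs the first desaturation, ELOVL5 lengthens the product, and FADS1 performs the last desaturation that yields arachidonic and eicosapentaenoic acid. ACSL1 and ACSL3 are long-chain acyl-CoA synthetases, which couple free fatty acids to coenzyme A before they enter lipids or are burnt, and ACSL3 works at the endoplasmic reticulum and on lipid droplets. Many of these genes are known targets of the SREBP transcription factors, and many tumours use the pathway.

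Libraries held between 31550173 and 34921085 counts. CYP1B1 reached 443 and 526 CPM (counts scaled to the library total) in RKO overexpression, against 0.697 and 0.726 CPM in RKO control, and 0.354 and 0.290 CPM in SW480 shCYP1B1, against 1.43 and 2.20 CPM in SW480 shNT. The overexpression counts do not separate introduced from resident transcripts, and the knockdown compares 10 to 12 counts with 50 to 76 per library. The 9 listed epithelial and colorectal markers summed to between 3260 and 3283 FPKM in SW480 shCYP1B1 and between 3019 and 3133 FPKM in SW480 shNT, mostly from KRT18, KRT8 and KRT19, while KRT20, LGALS4, VIL1 and CDH1 averaged under 2 FPKM in both SW480 groups. RKO was poor in them, with sums between 167 and 177 FPKM in overexpression and between 154 and 159 FPKM in control, nearly all from KRT18 and KRT8, and with KRT20 and LGALS4 at 0 in both RKO groups. Adipocyte markers, of which 4 of 6 were in the table, summed to at most 1.06 FPKM in any library. The 2 of 5 hepatocyte markers in the table, SERPINA1 and ALB, summed to at most 0.382 FPKM in RKO and to between 85.1 and 103 FPKM in SW480, nearly all of it SERPINA1. The stromal, endothelial and immune markers summed to between 395 and 463 FPKM in RKO and at most 18.9 FPKM in SW480, and CD68, a lysosomal protein, made up most of the RKO sum. Of the 7 epithelial markers tested in SW480 shCYP1B1 against shNT, KRT8 and KRT18 were called higher, and EPCAM, KRT19, CDX2 and VIL1 lower. EPCAM averaged 14.3 FPKM in shCYP1B1 and 84.3 FPKM in shNT, and KRT8 1226 FPKM in shCYP1B1 and 1053 FPKM in shNT. The part of these markers in the results was not tested. In bulk RNA, fewer cells of a kind and less RNA per cell cannot be told apart.

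Levels per transcript length (FPKM, fragments scaled by transcript length and library total) showed a pathway led by SCD in every group. SCD averaged 166 ± 13.5 FPKM in RKO overexpression, 130 ± 4.77 in RKO control, 115 ± 0.987 in SW480 shCYP1B1 and 92.7 ± 3.02 in SW480 shNT (SD, n = 2 each). ACLY was the next most abundant and FASN the third in all 4 groups, with no overlap between these neighbours. In RKO control the order went on with ACSL3, ACACA, ELOVL6, ACSL1 and FADS2, then ELOVL5 and FADS1 near 0. RKO overexpression had a like order, except that the libraries of ELOVL6, ACACA and ACSL1 overlapped each other in turn, as did those of ELOVL5 and FADS1. In SW480 shNT the genes after FASN were ELOVL5, FADS1, ACSL1, FADS2, ACACA, ACSL3 and ELOVL6. In SW480 shCYP1B1 ACSL1 stood above FADS1, and ACSL3 overlapped FADS2.

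**Figure D1:**
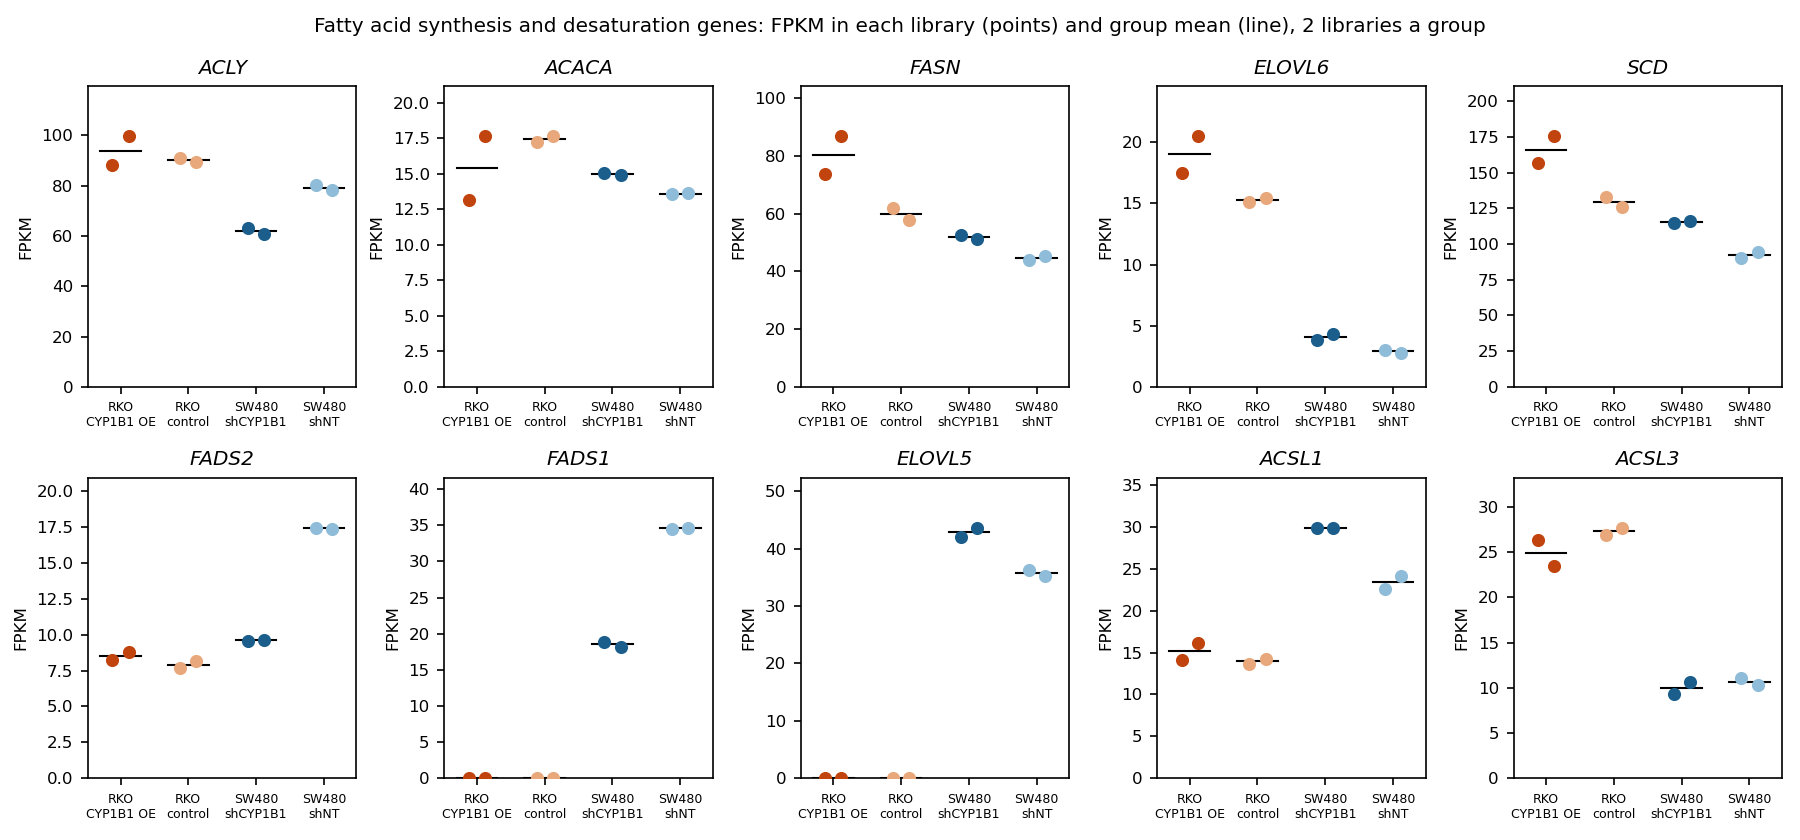
Levels of the 10 fatty acid enzyme genes in each library, in FPKM, with 1 panel per gene and the groups ordered RKO overexpression, RKO control, SW480 shCYP1B1, SW480 shNT. Points are libraries and lines are group means of 2 libraries; FADS1 and ELOVL5 lie under 0.2 FPKM in all RKO libraries and above 10 FPKM in all SW480 libraries.

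The lines differed first in RNA for polyunsaturated fatty acid synthesis, of which RKO lacked nearly all transcripts for a pair of steps. FADS1 had 34.4 and 34.7 FPKM in SW480 shNT, against 0.0628 and 0.0666 FPKM in RKO control. In counts FADS1 had 5462 and 5444 in SW480 shNT and 9 and 10 in RKO control, a depth-corrected ratio of 534 with an exact 95% interval of 342 to 887, which covers counting error only. ELOVL5 had 36.3 and 35.2 FPKM in SW480 shNT, against 0.0682 and 0.0976 FPKM in RKO control. Its counts were 4707 and 4524 against 8 and 12, a ratio of 429 with an interval of 278 to 703. Both genes thus sat near the counting floor in RKO control, and both were well expressed in SW480. FADS2, which acts before them in the same route, was expressed in both lines, at 17.4 and 17.3 FPKM in SW480 shNT and 7.65 and 8.13 FPKM in RKO control.

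Between the control groups, edgeR's quasi-likelihood test with Benjamini-Hochberg adjustment over 14157 genes was read for 8 of the 10 genes. FADS1 and ELOVL5 passed the filter on low counts only through SW480, where they are high, so their fitted log2 fold changes of 9.09 and 8.77 are given as a description. Of the other 8, 7 were called, where 76.8% of all genes tested were called (41.2% higher and 35.6% lower). Higher in SW480 shNT than in RKO control were FADS2 (log2 fold change 1.18, adjusted p = 1.84e-07) and ACSL1 (0.79). Of 14157 genes ranked by this fold change, FADS1 was 416th and ELOVL5 517th from the highest, so differences of this size were not rare between the lines. Lower in SW480 shNT were ELOVL6 (-2.35, SE 0.10, adjusted p = 1.5e-09), ACSL3 (-1.31), SCD (-0.44), FASN (-0.38) and ACACA (-0.31). The ACACA call was lost on leaving out any library but those of RKO overexpression, with an adjusted p between 0.0674 and 0.101, and ACLY did not pass (-0.14, adjusted p = 0.0944), but was called lower in 6 of 19 alternatives, with an adjusted p down to 0.00286. With limits chosen after the values were seen, 127 of 16829 genes, or 0.755%, were under 0.2 FPKM in all 4 RKO libraries and at least 10 FPKM in all 4 SW480 libraries, FADS1 and ELOVL5 among them, while 13 genes had the reverse pattern. Line, hairpin vector and any difference in culture cannot be told apart in this comparison.

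**Figure D2:**
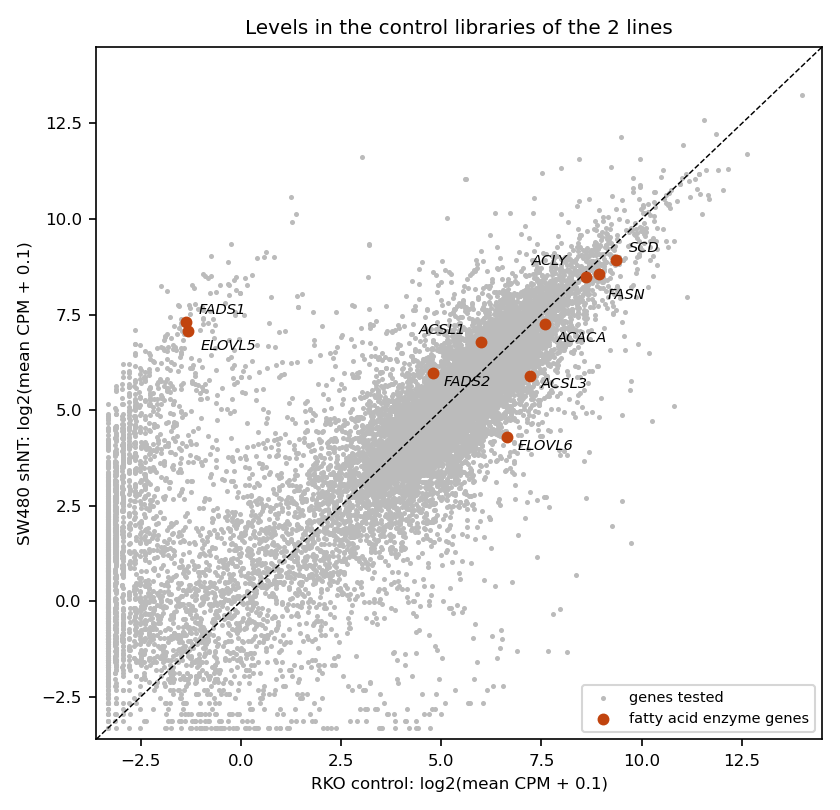
Mean level of each gene tested in SW480 shNT (vertical axis) and RKO control (horizontal axis), as log2 of the mean CPM plus 0.1, with the fatty acid enzyme genes in colour and a dashed line of equal levels. FADS1 and ELOVL5 stand far from the diagonal, with a log2 fold change of 9.09 and 8.77, while SCD, ACLY and FASN lie close to it among the abundant genes.

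The start regions of these genes are shown because FADS1 and ELOVL5 RNA was near the counting floor in RKO and high in SW480, while SCD RNA was abundant in both. The sequences are the 250 bases before the RefSeq transcription start on GRCh38.p14, 5′ to 3′ on the gene's strand, for FADS1 at chr11:61817004-61817253 (minus strand), ELOVL5 at chr6:53348951-53349200 (minus strand) and SCD at chr10:100346983-100347232 (plus strand). In the GENCODE 29 annotation the principal transcripts start inside these windows, FADS1 at 61817162, ELOVL5 at 53349007 and SCD at 100347124. Part of each window may thus be transcribed. Capitals mark matches, on either strand, to the NF-Y box CCAAT, the E-box CACGTG and the GC box GGGCGG, and no match to the sterol regulatory element TCACNCCAC was found in these 3 windows.
FADS1: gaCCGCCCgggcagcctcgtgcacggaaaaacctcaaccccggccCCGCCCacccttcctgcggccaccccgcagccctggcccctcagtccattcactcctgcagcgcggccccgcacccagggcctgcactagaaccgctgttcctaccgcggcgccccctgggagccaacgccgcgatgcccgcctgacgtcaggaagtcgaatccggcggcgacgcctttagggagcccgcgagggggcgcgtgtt
ELOVL5: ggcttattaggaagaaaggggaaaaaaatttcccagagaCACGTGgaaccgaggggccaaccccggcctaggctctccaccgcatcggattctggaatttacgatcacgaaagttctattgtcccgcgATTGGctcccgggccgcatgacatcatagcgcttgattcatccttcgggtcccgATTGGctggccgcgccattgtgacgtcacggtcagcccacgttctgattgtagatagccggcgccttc
SCD: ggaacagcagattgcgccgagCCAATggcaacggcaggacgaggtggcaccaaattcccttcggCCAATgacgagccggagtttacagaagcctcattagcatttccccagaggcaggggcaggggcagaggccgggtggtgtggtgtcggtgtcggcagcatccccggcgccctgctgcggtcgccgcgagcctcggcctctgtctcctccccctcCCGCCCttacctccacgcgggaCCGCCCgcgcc
FADS1 held a pair of GC boxes and no CCAAT, ELOVL5 held CCAAT 2 times and the E-box once, and SCD held 2 matches each of CCAAT and the GC box. Across 35116 promoters of this length, 32% held CCAAT, 6.34% the E-box, 42.6% the GC box and 0.883% the sterol element. CpG dinucleotides numbered 29 for FADS1, 21 for ELOVL5 and 23 for SCD, against a median of 11 over all promoters. A match is a description of letters and not a bound site, and no data on chromatin or methylation were used here. The RefSeq table matched 9 of the 10 genes.

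In the GENCODE 29 annotation of GRCh38, FADS1 (chr11:61799625-61829318, minus strand) and FADS2 (chr11:61792980-61867354, plus strand) overlap on opposite strands and share 490 bases of exon. Whether strand was used in counting is not given in the sources used here, so a small number of reads could be assigned to either gene. Genes around them, picked after the values were seen, were expressed in RKO. TMEM258 averaged 59.6 FPKM in RKO overexpression, 45.1 in RKO control, 68.1 in SW480 shCYP1B1 and 70.9 in SW480 shNT. FADS3, a relative of both desaturases, averaged 34.8 FPKM in RKO overexpression, 38.8 in RKO control, 29.5 in SW480 shCYP1B1 and 26.3 in SW480 shNT. FEN1, which processes DNA flaps in replication, averaged 60.02 FPKM in RKO overexpression, 32.9 in RKO control, 32.7 in SW480 shCYP1B1 and 68.1 in SW480 shNT. Farther off, RAB3IL1 averaged 3.10 FPKM in RKO overexpression and 3.52 in RKO control, and BEST1 0.221 FPKM in RKO overexpression and 2.27 in RKO control. At ELOVL5 (chr6:53267398-53349179, minus strand) the nearest gene in the tables by start, GCM1 at 200.3 kb, was at 0 in both RKO groups and averaged at most 0.0519 FPKM in SW480, and KLHL31, at 316.5 kb, averaged at most 0.111 FPKM in any group. GCLC, at 267.8 kb, averaged 15.01 FPKM in RKO overexpression, 15.2 in RKO control, 9.41 in SW480 shCYP1B1 and 11.8 in SW480 shNT.

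**Figure D3:**
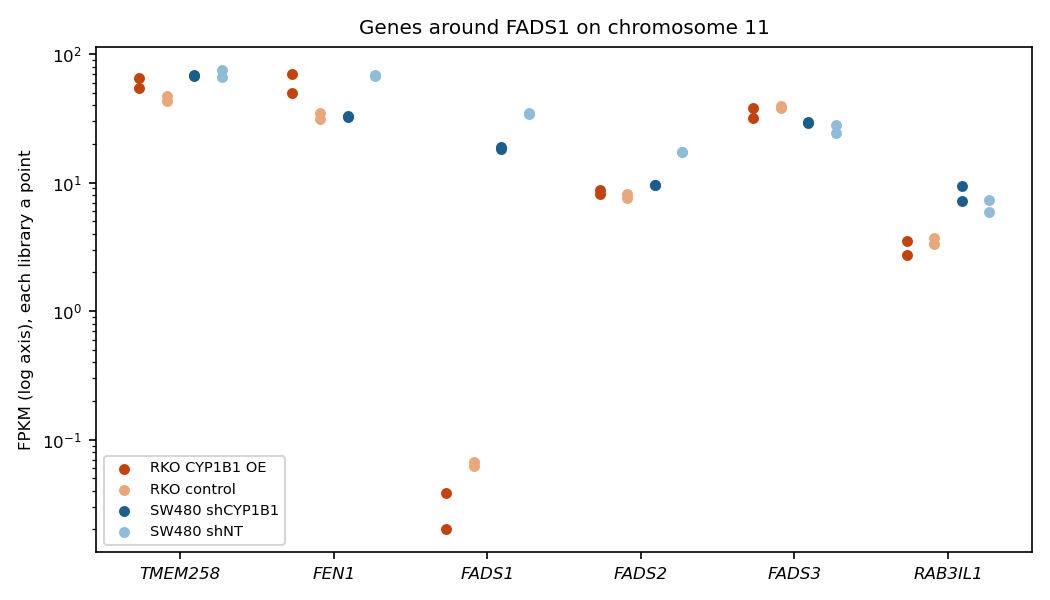
Levels of FADS1 and 5 genes around it in each library, in FPKM on a log10 axis, in their order along the chromosome, with points for libraries coloured by group. FADS1 is under 0.2 FPKM in the 4 RKO libraries, where TMEM258, FEN1 and FADS3 are all above 10 FPKM.

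In RKO overexpression 3 of the 10 genes were called higher than in RKO control. FASN, SCD and ELOVL6 were 1.36, 1.30 and 1.26 times as high in overexpression as in control, the ELOVL6 call was lost in 8 of 20 alternatives, and no gene of the 10 was called lower. The entry enzymes ACLY and ACACA, both acyl-CoA synthetases and FADS2 were not called. FADS1 and ELOVL5, at 2 to 14 counts per RKO library, could hardly show a fall. Thus 3 of 10 genes were called, with FADS1 and ELOVL5 among the 10, where 27.6% of all genes tested were called (13.8% higher and 13.8% lower), a share near the background.

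FASN had 73.8 and 86.9 FPKM in RKO overexpression, against 61.8 and 57.8 FPKM in RKO control. SCD had 157 and 176 FPKM in overexpression, against 133 and 126 FPKM in control. ELOVL6 had 17.5 and 20.5 FPKM in overexpression, against 15.2 and 15.5 FPKM in control. In all 3 genes both overexpression libraries lay above both control libraries, which held, in one direction or the other, for 58.8% of all genes in CPM scaled with TMM factors. The log2 fold changes were 0.44 for FASN (SE 0.08, adjusted p = 0.0024), 0.38 for SCD (SE 0.07, adjusted p = 0.00283) and 0.33 for ELOVL6 (SE 0.10, adjusted p = 0.0241), by the edgeR quasi-likelihood test, Benjamini-Hochberg adjusted. The ELOVL6 call was lost without control replicate 1 (adjusted p = 0.122), without control replicate 2 (adjusted p = 0.129) and without overexpression replicate 2 (adjusted p = 0.0597), and also with limma on log2 FPKM and in the RKO libraries alone.

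Of the entry enzymes, ACLY had 88.1 and 99.7 FPKM in RKO overexpression, against 90.9 and 89.4 FPKM in RKO control (log2 fold change 0.08, SE 0.07, adjusted p = 0.481). ACACA had 13.2 and 17.6 FPKM in overexpression, against 17.2 and 17.7 FPKM in control (-0.16, SE 0.11, adjusted p = 0.305). The overexpression libraries disagreed with each other on ACACA: without replicate 2 it was called lower (-0.39, adjusted p = 4.45e-06), and without replicate 1 its log2 fold change was 0.04. Overexpression was the group with the widest spread over all genes, with 156 of 10090 genes more than 2-fold apart between its libraries, against 114 in RKO control, 20 in SW480 shCYP1B1 and 17 in SW480 shNT. No gene of the 10 was called lower by edgeR or by DESeq2 with all libraries kept.

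FADS2 had 8.21 and 8.81 FPKM in RKO overexpression, against 7.65 and 8.13 FPKM in RKO control (log2 fold change 0.13, SE 0.09, adjusted p = 0.333). FADS1 had 6 and 3 counts in overexpression, against 9 and 10 counts in control, a ratio of 0.454 with an interval of 0.181 to 1.05. ELOVL5 had 2 and 14 counts in overexpression, against 8 and 12 counts in control, a ratio of 0.767 with an interval of 0.372 to 1.56. Both intervals held 1, with upper limits of 1.05 and 1.56 that cover counting error only. The summed counts thus showed no rise in either gene, while a fall could hardly be seen at this depth. ACSL1 had 14.1 and 16.1 FPKM in overexpression, against 13.6 and 14.3 FPKM in control (0.13, adjusted p = 0.250). ACSL3 had 26.4 and 23.4 FPKM in overexpression, against 26.9 and 27.7 FPKM in control (-0.11, adjusted p = 0.368). Without overexpression replicate 1, the fits called ACLY (0.17, adjusted p = 0.0113) and ACSL1 (0.23, adjusted p = 0.00946) higher and ACSL3 lower (-0.20, adjusted p = 0.0336), so these calls rest on which overexpression library is kept. Without replicate 2, ELOVL5 had a log2 fold change of -2.32 that rested on 2 counts. No gene of the 10 was called against a fold change of 1.5 in RKO.

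In SW480 shCYP1B1 the 10 genes were called in both directions. RNA for both polyunsaturated desaturases, FADS1 and FADS2, fell to 0.552 and 0.570 of the shNT level, and ACLY fell as well, while SCD, ELOVL6, FASN and ACSL1 rose. Of the 10 genes, 4 were called higher and 3 lower, where 50.6% of all genes tested were called (25.3% higher and 25.3% lower).

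FADS1 had 18.8 and 18.2 FPKM in SW480 shCYP1B1, against 34.4 and 34.7 FPKM in SW480 shNT. FADS2 had 9.59 and 9.65 FPKM in shCYP1B1, against 17.4 and 17.3 FPKM in shNT. Both shCYP1B1 libraries were below both shNT libraries by far more than the replicates differed. A lack of overlap, in one direction or the other, held for 80.7% of all genes in TMM-scaled CPM. The log2 fold change was -0.86 for FADS1 (SE 0.08, adjusted p = 5.92e-06) and -0.81 for FADS2 (SE 0.09, adjusted p = 2.09e-05), by the same edgeR test. Of the 10 genes, these were the only ones called against a fold change of 1.5 in this comparison. ELOVL5, the elongase that acts between them, was not called lower. It had 42.0 and 43.6 FPKM in shCYP1B1, against 36.3 and 35.2 FPKM in shNT (0.31, SE 0.12, adjusted p = 0.0563), and it was called higher in 7 of 20 alternative analyses, among them DESeq2 (adjusted p = 0.00245), the SW480 libraries alone (adjusted p = 2.35e-09) and the fits without RKO overexpression replicate 1 (adjusted p = 3.09e-05) or 2 (adjusted p = 3.08e-05).

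ACLY had 63.0 and 60.6 FPKM in SW480 shCYP1B1, against 80.2 and 78.4 FPKM in SW480 shNT. Its log2 fold change was -0.32 (SE 0.07, adjusted p = 0.00379), with an adjusted p of 0.059 without shNT replicate 1 and 0.0683 without shCYP1B1 replicate 2. ACACA had 15.04 and 14.9 FPKM in shCYP1B1, against 13.6 and 13.7 FPKM in shNT (0.18, SE 0.11, adjusted p = 0.189), and was called higher in the SW480 libraries alone (adjusted p = 1.95e-04) and without RKO overexpression replicate 1 (adjusted p = 0.00157) or 2 (adjusted p = 0.00161). RNA for ACLY, which makes acetyl-CoA from citrate, thus fell, and ACACA, which uses acetyl-CoA, was not called in the fit over all 8 libraries.

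SCD had 115 and 116 FPKM in SW480 shCYP1B1, against 90.5 and 94.8 FPKM in SW480 shNT (log2 fold change 0.36, SE 0.07, adjusted p = 0.00146). ELOVL6 had 3.83 and 4.35 FPKM in shCYP1B1, against 3.03 and 2.77 FPKM in shNT (0.54, SE 0.10, adjusted p = 0.00121). FASN had 52.5 and 51.3 FPKM in shCYP1B1, against 43.9 and 45.3 FPKM in shNT (0.26, SE 0.08, adjusted p = 0.0194). The groups did not overlap in any of these 3 genes, which held for 80.7% of all genes in TMM-scaled CPM. The FASN call was not firm: the adjusted p lay between 0.0841 and 0.125 on leaving out any 1 SW480 library, and limma on log2 FPKM did not call it either. ACSL1 had 29.9 and 29.9 FPKM in shCYP1B1, against 22.6 and 24.2 FPKM in shNT (0.40, SE 0.08, adjusted p = 0.00148). ACSL3 had 9.29 and 10.6 FPKM in shCYP1B1, against 11.04 and 10.3 FPKM in shNT (-0.06, adjusted p = 0.611), and these groups overlapped.

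**Figure D4:**
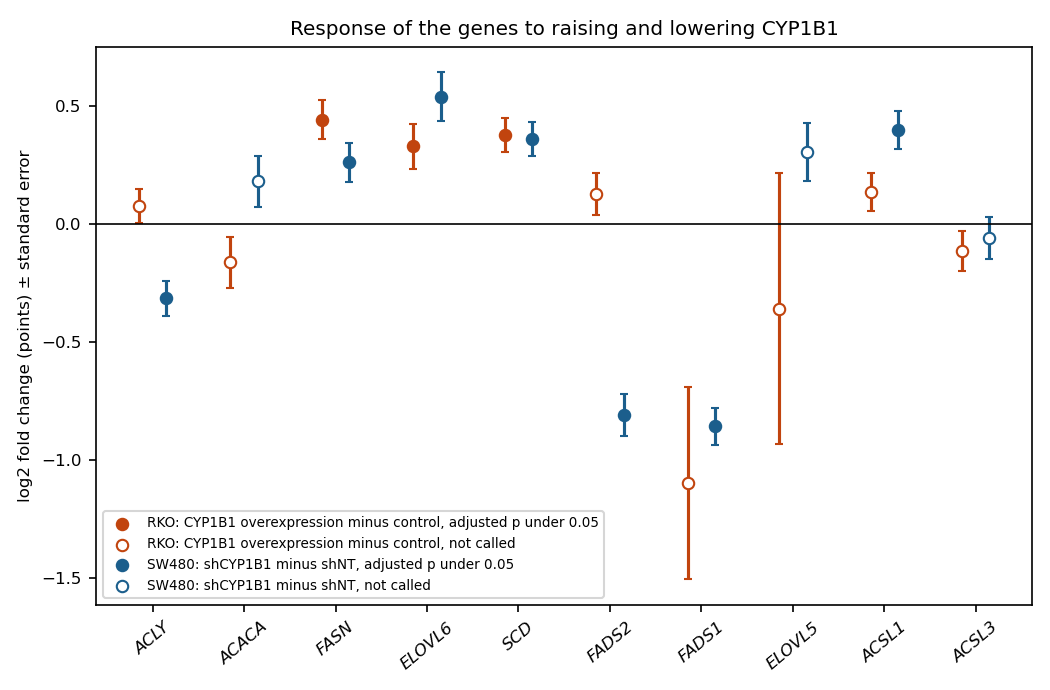
Log2 fold changes of the 10 fatty acid enzyme genes for RKO overexpression over control and for SW480 shCYP1B1 over shNT, with bars of 1 SE and filled points where the adjusted p was under 0.05. FASN, SCD and ELOVL6 are above 0 and filled in both comparisons, while FADS1 at -0.86, FADS2 at -0.81 and ACLY at -0.32 are filled and below 0 in SW480.

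FASN, SCD and ELOVL6 were called higher both with more CYP1B1 in RKO and with less CYP1B1 in SW480. This held for 3 of the 10 genes and for 4.49% of all genes tested. The comparisons share no library, but both come from 1 fit with its spread estimated over all 8 libraries. The ELOVL6 call in RKO and the FASN call in SW480 were each lost in 8 of 20 alternatives. The SCD calls were lost only in the test against a fold change of 1.5. The difference was tested directly as the effect of high over low CYP1B1 in RKO (overexpression minus control) minus that in SW480 (shNT minus shCYP1B1). This difference equals the sum of both comparisons above, so it is no separate test for genes called higher in both. It was above 0 for FASN (log2 difference 0.70, SE 0.12, adjusted p = 5.73e-04), SCD (0.74, SE 0.10, adjusted p = 1.70e-04), ELOVL6 (0.87, SE 0.14, adjusted p = 5.35e-04) and ACSL1 (0.53, SE 0.11, adjusted p = 0.0029). It was below 0 for FADS2 (-0.68, SE 0.13, adjusted p = 0.00119). For FADS1, which passed the filter through SW480 and had 3 to 10 counts per RKO library, the fitted difference of -1.96 (SE 0.41) is given as a description. ELOVL5 (-0.05) passed the filter in the same way, on 2 to 14 counts per RKO library, and is a description too. Of the genes other than FADS1 and ELOVL5, 4 were thus above 0 and 1 below, which compares with 42.6% of all genes tested (21.0% higher and 21.6% lower). ACLY (-0.24, adjusted p = 0.0834), ACSL3 (-0.17) and ACACA (0.02) were not called, although ACLY was with library totals (-0.30, adjusted p = 0.0306) and in the 3 limma fits (adjusted p up to 0.041). Without overexpression replicate 2, the difference was -0.33 for ACLY, -0.21 for ACACA and -2.02 for ELOVL5, the last on 2 overexpression counts. Without overexpression replicate 1, it was -0.26 for ACSL3, 0.22 for ACACA and 0.77 for ELOVL5. A gene that changed by the same fold with higher CYP1B1 in both lines would lie near 0 in this difference. If called, it would go in opposite directions in the comparisons above. CYP1B1 itself changed unequally, from 0.697 and 0.726 CPM in RKO control to 443 and 526 CPM in overexpression. In SW480 it went from 1.43 and 2.20 CPM in shNT to 0.354 and 0.290 CPM in shCYP1B1. A gene in proportion to CYP1B1 would thus not lie near 0. Of the 10 genes none was called in opposite directions. For FADS1, lower in SW480 shCYP1B1, this would take a rise in RKO overexpression, where it had 6 and 3 counts, against 9 and 10 in control. ELOVL5 was not called in SW480 shCYP1B1, and a fall in RKO could hardly be seen near the counting floor. Over all genes tested, 2222 of 14157 were called in both comparisons, 635 of them higher in both. How many went opposite ways was not counted, so nothing is read from this.

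Ratios within a library, which do not depend on its depth, showed which steps kept proportion. SCD stood at between 2.02 and 2.27 times the FPKM of FASN in all 8 libraries. FADS1 stood at 1.97 and 1.88 times FADS2 in SW480 shCYP1B1, against 1.97 and 2.00 in SW480 shNT, so both desaturases fell in proportion. In RKO the FADS1 to FADS2 ratio was 0.00468 and 0.00227 in overexpression, against 0.00821 and 0.00819 in control. SCD over FADS2, the monounsaturated over the first polyunsaturated desaturase, was 11.97 and 12.03 in SW480 shCYP1B1, against 5.19 and 5.47 in SW480 shNT. In RKO this ratio was 19.1 and 19.9 in overexpression, against 17.4 and 15.5 in control. FASN over ACACA was 5.61 and 4.92 in RKO overexpression, against 3.59 and 3.27 in RKO control, and 3.49 and 3.44 in SW480 shCYP1B1, against 3.24 and 3.31 in SW480 shNT. ACSL3 over ACSL1 was 1.87 and 1.45 in RKO overexpression, 1.97 and 1.94 in RKO control, 0.311 and 0.356 in SW480 shCYP1B1 and 0.489 and 0.428 in SW480 shNT, so the main acyl-CoA synthetase transcript of this pair differed between lines.

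The summed level of the 10 genes was 398 and 449 FPKM in RKO overexpression, 366 and 357 in RKO control, 359 in both SW480 shCYP1B1 libraries, and 353 and 357 in SW480 shNT. FADS1, FADS2 and ELOVL5 made up 2.08% and 1.99% of that sum in RKO overexpression, against 2.12% and 2.33% in RKO control. They made up 19.6% and 19.9% in SW480 shCYP1B1, against 24.98% and 24.45% in SW480 shNT. The control groups of the lines thus had a like total, with the polyunsaturated share far higher in SW480.

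Regulators of the pathway were listed with it. SREBF1, which encodes the SREBP that drives fatty acid genes, had 16.5 and 17.3 FPKM in RKO overexpression, against 12.99 and 13.8 FPKM in RKO control (log2 fold change 0.35, adjusted p = 0.00602). That call was lost without control replicate 1 (adjusted p = 0.0599). In SW480 it had 10.5 and 10.3 FPKM in shCYP1B1, against 17.0 and 15.7 FPKM in shNT (-0.61, adjusted p = 6.84e-05). SREBF2, whose product drives cholesterol genes, went the other way in SW480, with 32.5 and 33.6 FPKM in shCYP1B1, against 24.7 and 24.8 FPKM in shNT (0.46, adjusted p = 1.50e-04), and was not called in RKO (0.08, adjusted p = 0.394). INSIG1, which holds SREBPs back in the endoplasmic reticulum and is itself a target of theirs, had 35.2 and 34.3 FPKM in SW480 shCYP1B1, against 6.17 and 6.57 FPKM in SW480 shNT (2.49, adjusted p = 3.09e-07). In RKO INSIG1 had 31.6 and 22.9 FPKM in overexpression, against 18.6 and 16.8 FPKM in control (0.64, adjusted p = 0.00401), which was lost without control replicate 2 (adjusted p = 0.062).

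Of 21 regulators and reporters of SREBP and LXR tested, 12 were higher and 6 lower in SW480 shCYP1B1, with a median log2 fold change of 0.40, against -0.0037 over all genes. That is 85.7% called, against 50.6% of all genes. In RKO overexpression 5 were higher and 3 lower, or 38.1% against 27.6% of all genes, with a median of 0.03. SQLE, the squalene epoxidase of cholesterol synthesis, rose in SW480 shCYP1B1 (1.15, adjusted p = 6.91e-07) and in RKO overexpression (0.62, adjusted p = 2.45e-04).

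Of 14 tested genes of precursor supply and other synthesis steps, which bring carbon and reducing power, 2 were higher and 1 lower in RKO overexpression (median -0.13), and 4 were higher and 2 lower in SW480 shCYP1B1 (median 0.13). The shares called, 21.4% in RKO and 42.9% in SW480, were under the 27.6% and 50.6% of all genes. SLC25A1, which exports citrate from mitochondria to ACLY, was higher in both: 87.3 and 82.0 FPKM in RKO overexpression, against 58.6 and 56.5 FPKM in RKO control (log2 fold change 0.57, adjusted p = 2.79e-04), and 52.6 and 51.3 FPKM in SW480 shCYP1B1, against 36.4 and 35.7 FPKM in SW480 shNT (0.57, adjusted p = 5.5e-05). In SW480 shCYP1B1 the citrate exporter thus rose where ACLY, the next step, fell. IDH1, which makes cytosolic NADPH, fell in RKO overexpression (-0.28, adjusted p = 0.0385) and rose in SW480 shCYP1B1 (0.29, adjusted p = 0.0163), but the RKO call was lost on leaving out any library but overexpression replicate 1 (adjusted p up to 0.202, without control replicate 2), and the SW480 call on leaving out any SW480 library (up to 0.0774, without shNT replicate 2). Of mitochondrial fatty acid synthesis, MCAT rose in RKO overexpression (0.43, adjusted p = 0.0102; 0.0647 without control replicate 1 and 0.0603 without control replicate 2). HSD17B8 rose in SW480 shCYP1B1 (0.80, adjusted p = 0.0135; 0.0959 without shNT replicate 2 and 0.162 without shCYP1B1 replicate 1).

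Of 13 other desaturation and elongation genes tested, 4 were higher and 1 lower in RKO overexpression (median 0.07), and 3 were higher and 3 lower in SW480 shCYP1B1 (median -0.06). In RKO 38.5% were called, against 27.6% of all genes, and in SW480 46.2%, against 50.6%. SCD5, the other human stearoyl-CoA desaturase, had 15.2 and 16.0 FPKM in SW480 shCYP1B1, against 5.46 and 6.05 FPKM in SW480 shNT (1.48, adjusted p = 5.14e-07). In RKO it had 17.1 and 15.95 FPKM in overexpression, against 11.9 and 13.3 FPKM in control (0.41, adjusted p = 0.00612; 0.069 without control replicate 1). Both stearoyl-CoA desaturases were thus called higher in both comparisons. In the shared elongation cycle, HACD2, a dehydratase, fell in RKO overexpression (-0.44) and in SW480 shCYP1B1 (-0.55), and HACD3, its relative, rose in RKO overexpression (0.72, adjusted p = 5.32e-04). The call on HACD3 in SW480 (0.27, adjusted p = 0.0399) was lost on leaving out any 1 SW480 library, with an adjusted p of up to 0.232 without shNT replicate 2. TECR, the reductase that closes the cycle, rose in RKO overexpression (0.49, adjusted p = 6.56e-04) and was not called in SW480 (adjusted p = 0.781).

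Of 12 other acyl-CoA synthetases and carriers tested, 5 were higher and 1 lower in RKO overexpression (median 0.46), and 2 were higher and 3 lower in SW480 shCYP1B1 (median -0.10). The share called was 50% in RKO, against 27.6% of all genes, and 41.7% in SW480, against 50.6%. SLC27A4, a fatty acid transport protein with synthetase activity, had 6.90 and 7.58 FPKM in SW480 shCYP1B1, against 17.8 and 16.9 FPKM in SW480 shNT (-1.22, adjusted p = 1.99e-06). Its relative SLC27A1 had 17.9 and 16.2 FPKM in shCYP1B1, against 7.10 and 6.12 FPKM in shNT (1.41, adjusted p = 3.36e-06), so these uptake genes went opposite ways. SLC27A1 also rose in RKO overexpression (0.50, adjusted p = 0.0163), a call lost without control replicate 1 (adjusted p = 0.105) and without control replicate 2 (adjusted p = 0.0631). ACSL6 rose in SW480 shCYP1B1 (1.38, adjusted p = 2.09e-05) and had almost no counts in RKO. DBI, the acyl-CoA binding protein, rose in RKO overexpression (0.62, adjusted p = 2.45e-04). ACSL4, which prefers arachidonic acid and is known for its role in ferroptosis, had 28.9 and 25.2 FPKM in RKO overexpression, against 32.2 and 34.1 FPKM in RKO control (-0.28, adjusted p = 0.0201). That call was lost without control replicate 1 (adjusted p = 0.0701) or 2 (adjusted p = 0.146). In SW480 ACSL4 had 37.7 and 36.5 FPKM in shCYP1B1, against 33.9 and 33.8 FPKM in shNT (0.18, adjusted p = 0.0751). It was called higher there with DESeq2 (adjusted p = 0.0376), with RLE scaling (adjusted p = 0.0411), without either RKO overexpression library (adjusted p up to 0.00236) and in the SW480 libraries alone (adjusted p = 1.79e-04).

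**Figure D5:**
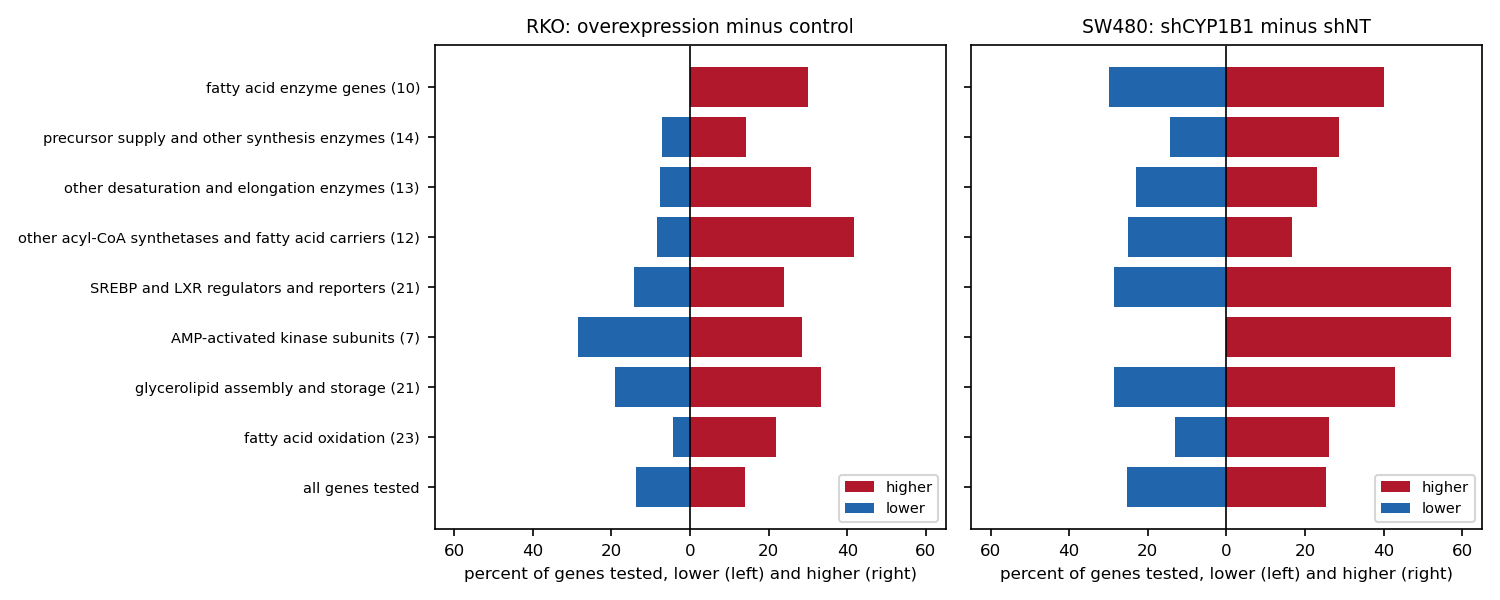
Percent of the genes tested in each pathway list that were called higher (right bars) or lower (left bars) in RKO overexpression against control and in SW480 shCYP1B1 against shNT, with the number tested in brackets. In SW480 the list of SREBP and LXR regulators and reporters has 12 of 21 genes higher and 6 lower, while over all genes 25.3% were called each way.

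Downstream, 21 genes of glycerolipid assembly and storage were tested, with 7 higher and 4 lower in RKO overexpression (median 0.05) and 9 higher and 6 lower in SW480 shCYP1B1 (median 0.08). Called genes made up 52.4% in RKO, against 27.6% of all genes, and 71.4% in SW480, against 50.6%. G0S2, an inhibitor of fat breakdown, had 41.6 and 46.8 FPKM in SW480 shCYP1B1, against 6.15 and 6.47 FPKM in SW480 shNT (2.85, adjusted p = 4.82e-06). MGLL, monoacylglycerol lipase, rose there as well (1.38, adjusted p = 1.02e-05), and PLIN3, a lipid droplet coat protein, rose in RKO overexpression (0.92, adjusted p = 1.01e-04) and in SW480 shCYP1B1 (0.61, adjusted p = 1.90e-04). AGPAT5, an acyltransferase of phosphatidic acid synthesis, fell in SW480 shCYP1B1 (-1.11, adjusted p = 1.23e-05) and rose in RKO overexpression (0.46, adjusted p = 0.00774; 0.0654 without control replicate 1 and 0.0523 without control replicate 2). LPCAT3, which places polyunsaturated chains into phospholipids, had 22.7 and 22.6 FPKM in SW480 shCYP1B1, against 38.2 and 35.8 FPKM in SW480 shNT (-0.67, adjusted p = 1.29e-04), and was not called in RKO (0.16, adjusted p = 0.242).

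Of 23 fatty acid oxidation genes tested, 5 were higher and 1 lower in RKO overexpression (median 0.14), and 6 were higher and 3 lower in SW480 shCYP1B1 (median 0.04). These are 26.1% called in RKO and 39.1% in SW480, both under the 27.6% and 50.6% of all genes. CPT1A, the gate for fatty acid entry into mitochondria, had 18.9 and 17.9 FPKM in SW480 shCYP1B1, against 39.5 and 38.5 FPKM in SW480 shNT (-1.04, adjusted p = 2.38e-06). In RKO it had 21.4 and 22.9 FPKM in overexpression, against 20.4 and 18.04 FPKM in control (0.22, adjusted p = 0.0639). PPARD, a nuclear receptor for fatty acids, rose in SW480 shCYP1B1 (0.88, adjusted p = 4.02e-06), and ECHS1, a hydratase of the mitochondrial cycle, rose in RKO overexpression (0.33, adjusted p = 0.00407) and in SW480 shCYP1B1 (0.32, adjusted p = 0.00214). Of 7 genes of AMP-activated kinase and its activator, which restrain ACACA by phosphorylation, 2 were higher and 2 lower in RKO overexpression and 4 were higher in SW480 shCYP1B1, a share of 57.1% in each, against 27.6% and 50.6% of all genes. The genes higher in RKO were PRKAG2 (0.24, adjusted p = 0.0496) and STK11 (0.33, adjusted p = 0.0217), and neither was called without control replicate 1 (adjusted p of 0.167 and 0.174), without control replicate 2 (0.206 and 0.0507) or in the RKO libraries alone. The SW480 call on PRKAB2 (0.27, adjusted p = 0.0484) was lost on leaving out any 1 SW480 library, with an adjusted p of up to 0.17 without shCYP1B1 replicate 1. PRKAG2 (0.96, adjusted p = 5.98e-06) and STK11 (0.63, adjusted p = 1.93e-04) rose in SW480 shCYP1B1. PRKAB2 (-0.85, adjusted p = 2.78e-04) and PRKAA1 (-0.38, adjusted p = 0.00286) fell in RKO overexpression.

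As a description of shared pattern, each of the 10 genes was compared with the other genes of at least 10 CPM by Pearson's r over the 8 libraries, centred within each line. Over 10080 genes searched, the gene most like FADS1 was EPRS1 (r = 0.997), that most like FADS2 was TIMELESS (r = 0.998), that most like SCD was RANBP3 (r = 0.998) and that most like FASN was PMP22 (r = 0.994). With 2 libraries in each of 4 groups such values mostly reflect the same group means, and they come from the best of many genes.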

How the data were processed

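RNA-seq was measured in 8 libraries, grouped by their titles. The authors deposited raw read counts per gene, whole numbers summing to 31550173 to 34921085 per library, and FPKM, which per the files equal the count divided by a gene length and the library total. Reads were set against GRCh38.p13, per the submitters' processing notes. Not given in the sources used here are the aligner, the counter, the annotation and the use of strand.

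Counts were filtered with edgeR's filterByExpr (minimum count 10, minimum total 15), leaving 14157 genes, scaled with TMM and fitted with 1 coefficient per group over all 8 libraries (4 residual degrees of freedom) in edgeR 4.0.16 under R 4.3.3, by the quasi-likelihood test with Benjamini-Hochberg adjustment at 0.05. The standard error is the log2 fold change divided by the square root of F. Exact permutation of 2 against 2 libraries cannot go below p = 0.333 and was not used. Intervals on CPM and count ratios are exact 95% intervals and cover counting error only. The fitting code was tested on simulated data. Alternatives were RLE scaling, library totals, other filters on low counts, DESeq2 1.42.0, limma 3.58.1 on log2(FPKM + 1) or log2(FPKM + 0.1), a test against a fold change of 1.5, CYP1B1 removed, a replicate block, each line alone, and each of the libraries omitted in turn, where a lone library takes the spread of the other groups.

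Named genes are the 10 enzymes, CYP1B1, SREBF1, SREBF2, INSIG1, ACSL4, LPCAT3 and CPT1A, up to 4 called genes per list with the smallest p, and the gene most like each enzyme. A few genes so chosen are not reported here. The members and lists were chosen with earlier results of these data known. Gene positions came from GENCODE 29 (GRCh38) and promoters from RefSeq (GRCh38.p14).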

Additional observations from a re-analysis of the deposited data

Results flagged for a closer look

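The effect of high over low CYP1B1 differed between RKO and SW480 for 5 of the 10 enzyme genes, leaving aside FADS1 and ELOVL5, which had few counts in RKO. This is by the edgeR test of the difference itself with Benjamini-Hochberg adjustment, where 42.6% of all genes tested differed. As RKO minus SW480 on the log2 scale, the difference was 0.70 for FASN, 0.74 for SCD, 0.87 for ELOVL6, 0.53 for ACSL1, -0.68 for FADS2 and -1.96 for FADS1. For FASN, SCD and ELOVL6 it joins a rise in RKO overexpression with a rise in SW480 shCYP1B1, and is no test apart from those comparisons. The contrast cannot tell an effect of CYP1B1 that differs by line from a response common to both manipulations. For FADS2 and ACSL1 only the SW480 comparison was called on its own. For FADS1 the RKO side rests on 3 to 10 counts per library, and the gene passed the filter on low counts through SW480, so its value is a description. RKO overexpression replicates 1 and 2 differed more than replicates of other groups, with a median absolute log2 difference of 0.169 over 10090 genes, against 0.082 in RKO control, 0.0688 in SW480 shCYP1B1 and 0.0735 in SW480 shNT, and the part of this spread in the differences was not tested. The difference kept its sign in all 6 genes with either overexpression library left out, for FADS1 as a description only.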

How the results depend on the processing

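Scaling and filters on counts moved no member's call in RKO, and FADS1 and FADS2 were called lower in SW480 in all 20 alternatives. The test against a fold change of 1.5 called 89 genes in RKO, 1994 in SW480, 1961 for the difference between lines and 6851 for SW480 shNT minus RKO control. Among the 10 genes it called 0 in either direction in RKO, and 0 higher and 2 lower (FADS1 and FADS2) in SW480. For the difference it called none of them apart from FADS1, which had 3 to 10 counts per RKO library. Between the control groups it called FADS2 and ACSL1 higher and 2 genes lower. FADS1 and ELOVL5 passed the filter on low counts through SW480, so their values between the control groups and for the difference are left as a description. The RKO libraries alone gave 2294 calls.

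Leaving out each library gave 1784 to 5629 calls in RKO (2254 without control replicate 1, 1784 without control replicate 2), against 3907 with all, 5076 to 8756 in SW480, 4576 to 7142 for the difference and 9747 to 11714 between the control groups. Among the 10 genes it gave 2 to 5 higher and 0 to 2 lower in RKO, 3 to 6 higher and 2 to 3 lower in SW480, and 4 to 5 higher and 2 to 5 lower for the difference. These ranges count FADS1 and ELOVL5, which had few counts in RKO and passed the filter through SW480. Without RKO overexpression replicate 2, ELOVL5 is among the lower genes in RKO (-2.32) and for the difference (-2.02), on 2 overexpression counts. For FADS1 and ELOVL5 the RKO and difference ranges are thus a description, and nothing is read from them.

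The log2 fold change changed sign among the fits that left out 1 library in RKO for ACACA (-0.39 to 0.036), ACLY (-0.017 to 0.17), ELOVL5 (-2.32 to 0.47) and G0S2 (-0.73 to 0.19). In SW480 it did so for ACSL3 (-0.15 to 0.045) and TECR (-0.00676 to 0.074), and for the difference for ACACA (-0.21 to 0.22) and ELOVL5 (-2.02 to 0.77). TECR in SW480 was also below 0 with library totals (-0.018) and with limma (-0.017 in each of the 3 fits). For the difference ACACA was below 0 with library totals (-0.043), with limma on log2(FPKM + 1), filtered or not (-0.055), and on log2(FPKM + 0.1) (-0.058), and ELOVL5 was above 0 with limma on log2(FPKM + 1), filtered or not (0.23), and on log2(FPKM + 0.1) (0.048). The cause was not tested.

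With the replicate number as a block, 3810 genes were called in RKO, 6960 in SW480, 5868 for the difference and 10768 between the control groups, and no call on the 10 genes changed. The deviations of same-numbered libraries correlated at r = -0.027 in RKO and r = -0.0205 in SW480, so no shared deviation was seen. Whether same-numbered libraries were prepared together is not given, and these values cannot decide it. Depth limits FADS1, ELOVL5 and ACSL6 in RKO.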
